A study of Pseudotsuga menziesii with 66 samples.

Results

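RNA was sequenced from needles of the same 3 young trees of Douglas-fir (Pseudotsuga menziesii), CCTO43, CCTO44 and CCTO90, collected on 7 Oct 2011 and again 19 days later, on 26 Oct 2011. These 6 libraries, chosen by the tree and the date in their names, are 6 of the 66 libraries analysed here, which cover 5 trees and 16 dates from 27 Oct 2010 to 26 Oct 2011. The early group is the 3 libraries of 7 Oct and the late group the 3 libraries of 26 Oct; the groups differ in date and hold the same trees. No treatment was applied to either. All trees grew in one warm, dry garden in southern Oregon from seed of the Oregon Siskiyou low-elevation source; the seed of CCTO43 came from another, lower locality than that of CCTO44 and CCTO90. Every sample pooled several needles of the 2010 cohort, taken from several sides of the crown at about noon. Each tree is thus one individual, and the libraries of a date share the weather of that day, so a difference between the dates cannot be told apart from a difference between those days.

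Conifer needles stay alive through winter, and autumn is when they acclimate to it. As days shorten and nights cool, growth stops, photosynthesis is turned down and protective proteins, sugars and membrane lipids are built up, a process called hardening. Day length and temperature both act on it. The deposited identifiers come without gene names, so which of these functions a transcript belongs to is not known here.

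Between 7 and 26 Oct 2011 a small share of the needle transcriptome was called as changed. Of 60931 transcripts with enough counts to be tested, 619 rose and 783 fell, together 2.3% (1.02% higher and 1.29% lower; edgeR quasi-likelihood test blocked by tree, adjusted p under 0.05 by Benjamini-Hochberg). Those that rose had a median log2 change of 1.49 and those that fell one of -1.57, against -0.02 over all tested transcripts. A change of at least 2-fold was fitted for 461 of the 619 and 550 of the 783, and one of at least 8-fold for 102 and 154. The changed transcripts were more abundant than most: their median level over the 6 libraries was 4.20 CPM (a count as a share of the library, scaled between libraries) for those that rose and 5.89 CPM for those that fell, against 0.783 CPM over all tested transcripts. The samples are whole needles, in which fewer cells of a type and less RNA per cell cannot be told apart.

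The count of changed transcripts depended on each tree. Without CCTO43, 210 transcripts rose and 206 fell, together 0.683% of those tested (0.345% and 0.338%), and 174 and 173 of them were also among the 619 and 783 (edgeR, adjusted p under 0.05). Leaving out CCTO44 gave 176 that rose and 204 that fell, and leaving out CCTO90 gave 320 and 347. When the CCTO43 library of 26 Oct alone was left out, 375 rose and 300 fell, together 1.11% (0.615% and 0.492%). DESeq2 called 1141 higher and 981 lower on all 3 trees, together 3.48% of the 60931 (1.87% and 1.61%). It gave no adjusted p for 16539 of them, so its adjustment ran over fewer transcripts than that of edgeR. The fits without a tree rest on fewer trees, which by itself lowers the number that can pass. Of the 619 and 783, 4 and 2 had the opposite sign without CCTO43. Such agreement is likely beforehand and is no further support, since CCTO44 and CCTO90 also made the calls.

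The direction was shared by the trees for most of the called transcripts, as a called mean change makes likely. Of the 619, 555 (89.7%) were higher on 26 Oct in all 3 trees, against 9.74% of all tested transcripts. Of the 783, 753 (96.2%) were lower in all 3, against 15.9%. The levels of the 2 dates did not overlap for 460 of those that rose and 651 of those that fell, where 3.58% and 6.21% of all tested transcripts were so placed. These shares describe the called lists and are no further support, since the same libraries made the calls.

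The summed share of counts is given for each library; its direction follows from how the lists were called, and it is not scaled between libraries. For the transcripts that rose it went from 1.85% to 2.86% in CCTO43, from 1.33% to 2.62% in CCTO44 and from 1.42% to 2.43% in CCTO90. The summed share of those that fell went from 2.34% to 0.525% in CCTO43, from 2.68% to 1.42% in CCTO44 and from 2.58% to 1.39% in CCTO90. In the CCTO43 library of 26 Oct 4 transcripts held 38.2% of the counts (scaling factor 0.549, against 1.11 for that tree on 7 Oct), which lowers all other shares there. On the scaled values the median log2 change of the 619 was 1.42 in CCTO43, 1.31 in CCTO44 and 1.23 in CCTO90, and that of the 783 was -1.73, -1.34 and -1.25.

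The largest rise among transcripts of at least 10 CPM that were called with and without CCTO43 (65 rose and 67 fell under that rule) was that of psme_t039203. It was measured at 1.59 CPM on 7 Oct and 48.5 CPM on 26 Oct in CCTO43, at 0.816 and 24.5 CPM in CCTO44, and at 1.39 and 38.8 CPM in CCTO90. The 3 later libraries all lay far above the 3 earlier ones. Its log2 change was 4.87 (SE 0.54, edgeR adjusted p = 4.78e-08), and 4.85 without CCTO43 (SE 0.72, edgeR adjusted p = 0.000164). This transcript had been at 285 ± 163 CPM on 28 Jul 2011 (SD, n = 4) and at 0.0974 ± 0.0700 CPM on 6 Jan 2011 (SD, n = 5). Its level of late October 2011, 37.3 ± 12.1 CPM (SD, n = 3), was thus between the summer and the winter levels, and on 27 Oct 2010, a year earlier, it was at 0.286 ± 0.111 CPM (SD, n = 5).

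The next largest rise was that of psme_t044566, which went from 4.39 to 234 CPM in CCTO43, from 4.62 to 86.4 CPM in CCTO44 and from 8.96 to 172 CPM in CCTO90. Again no library of 26 Oct came near one of 7 Oct. The log2 change was 4.78 (SE 0.69, edgeR adjusted p = 1.40e-05), and 4.25 without CCTO43 (SE 0.85, edgeR adjusted p = 0.00673). In CCTO44, which alone of the 3 trees has a library of 7 Sep 2011, it was at 8.42 CPM on that date and psme_t039203 at 1.01 CPM, while CCTO46, with no library of October 2011, was at 82.5 and 33.6 CPM on 7 Sep.

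The largest falls were those of psme_t005030 and psme_t004745. The level of psme_t005030 went from 97.2 to 8.24 CPM in CCTO43, from 107 to 3.99 CPM in CCTO44 and from 44.8 to 4.19 CPM in CCTO90. That of psme_t004745 went from 81.7 to 7.54 CPM, from 149 to 7.85 CPM and from 38.1 to 4.19 CPM in the same trees. For neither did the dates overlap, and CCTO90 was the lowest of the 3 trees on 7 Oct for each. The log2 changes were -3.98 (SE 0.26) and -3.71 (SE 0.25), each with an edgeR adjusted p of 2.29e-16, and -4.22 and -3.84 without CCTO43.

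Both of these transcripts also followed the year in the opposite sense to the risers. The level of psme_t005030 was 65.4 ± 12.7 CPM on 27 Oct 2010 (SD, n = 5), 7.10 ± 1.24 CPM on 7 Jul 2011 (SD, n = 4) and 82.8 ± 33.3 CPM on 7 Oct 2011 (SD, n = 3). On 26 Oct 2011 it was 5.47 ± 2.40 CPM (SD, n = 3), so the late October level lay beside that of early July and not beside that of the October before. The profile of psme_t004745 was nearly parallel, with 63.4 ± 13.2, 8.73 ± 1.74, 89.8 ± 56.1 and 6.53 ± 2.03 CPM on the same dates. Whether the 2 identifiers share reads is not known.

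**Figure D1:**
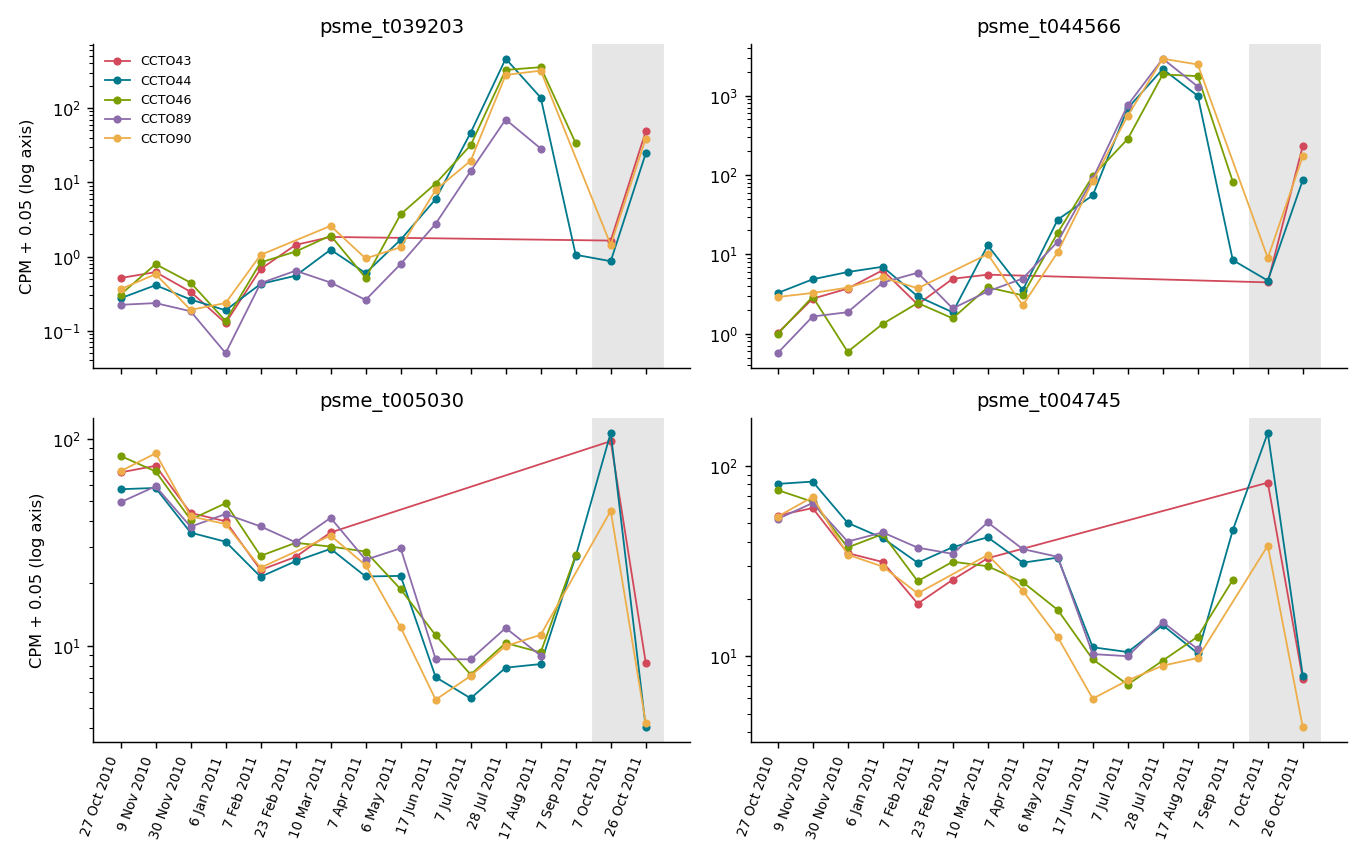
Level of the 2 transcripts with the largest rise (top) and the 2 with the largest fall (bottom) from 7 to 26 Oct 2011 among transcripts of at least 10 CPM called with and without CCTO43, in CPM plus 0.05 on a log axis, on each collection date; each line is a tree and the grey band marks the 2 October 2011 dates. Between the 2 dates psme_t039203 and psme_t044566 go up in each of the 3 trees and psme_t005030 and psme_t004745 go down in each; lines bridge dates on which a tree has no library, as for CCTO43 from March to October 2011.

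Complete loss between the dates was rare. One transcript, psme_t045260, singled out after its values were seen, had at least 10 counts in each library of 7 Oct and none in any of 26 Oct. It had 55 counts in CCTO43, 102 in CCTO44 and 24 in CCTO90 on the earlier date (edgeR adjusted p = 1.07e-06). No transcript showed the reverse. Within CCTO43 alone, 1755 transcripts went from at least 10 counts to 0, against 225 in CCTO44 and 125 in CCTO90. In the same order 325, 97 and 108 went from 0 to at least 10. These counts are not scaled between libraries. The scaling factor went from 1.11 to 0.549 in CCTO43, which leaves fewer counts for most transcripts there. It went from 1.14 to 1.23 in CCTO44 and from 1.03 to 1.17 in CCTO90. Its part in the losses was not tested.

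Set against the year as a whole, the transcripts that rose in late October were, by their median, high in summer. Each library was compared with the mean of its own tree over its other dates, on the log2 scale. In the 12 libraries of 7 Jul, 28 Jul and 17 Aug 2011 the median of the 619 lay 0.55 to 0.96 above that mean, and the median of the 783 lay between -0.88 and -0.68. In the trees CCTO46 and CCTO89, which have no library of either date and enter the fit only through the filter and the shared estimates of scale and spread, the same medians were 0.66 to 0.91 and -0.86 to -0.68 over 6 libraries. One of the 6, CCTO46 of 17 Aug, resembled CCTO44 more than its own tree, and its medians, 0.83 and -0.73, rest on its label. The median over all tested transcripts stayed between -0.07 and 0 in the 12 summer libraries.

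In autumn and winter the order was turned around, but the low of the 619 was not confined to those seasons. On 6 May 2011 their medians were -0.47 in CCTO44, -0.49 in CCTO46, -0.22 in CCTO89 and -0.49 in CCTO90. Those of the 783 were near 0 on that date, at 0.00, -0.03, -0.02 and -0.02 in the same order. In the libraries of 27 Oct 2010 of the trees CCTO44, CCTO46, CCTO89 and CCTO90 the 619 had medians of -0.42 to -0.26 and the 783 medians of 0.52 to 0.53. On 7 Oct 2011 the medians of the 619 were -0.46 in CCTO44 and -0.42 in CCTO90, close to those of the October before, and on 26 Oct they were 0.83 and 0.69, close to those of summer. The last 4 values were used in choosing the list and are given as a description. In CCTO43 the median of the 619 went from -0.11 to 1.35 and that of the 783 from -0.04 to -1.66, but this tree has no library from 10 Mar to 7 Oct 2011, so its mean holds no summer. In the lists called without CCTO43 the summer medians in the same 12 libraries were 0.53 to 1.02 for the 210 and -1.11 to -0.88 for the 206. For the 210 the medians from 27 Oct 2010 to 6 Jan 2011 were nearer to 0, at -0.31 to -0.01, and on 7 Feb 2011 they were 0.09 in CCTO44 and 0.06 in CCTO46. They were lower on 6 May 2011, at -0.66 in CCTO44, -0.78 in CCTO46, -0.45 in CCTO89 and -0.68 in CCTO90. Of the 210, 31.4% were higher and 40% lower in January than in June, against 30.5% and 27.3% of all tested transcripts. The share that was higher was thus near that of all tested transcripts.

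**Figure D2:**
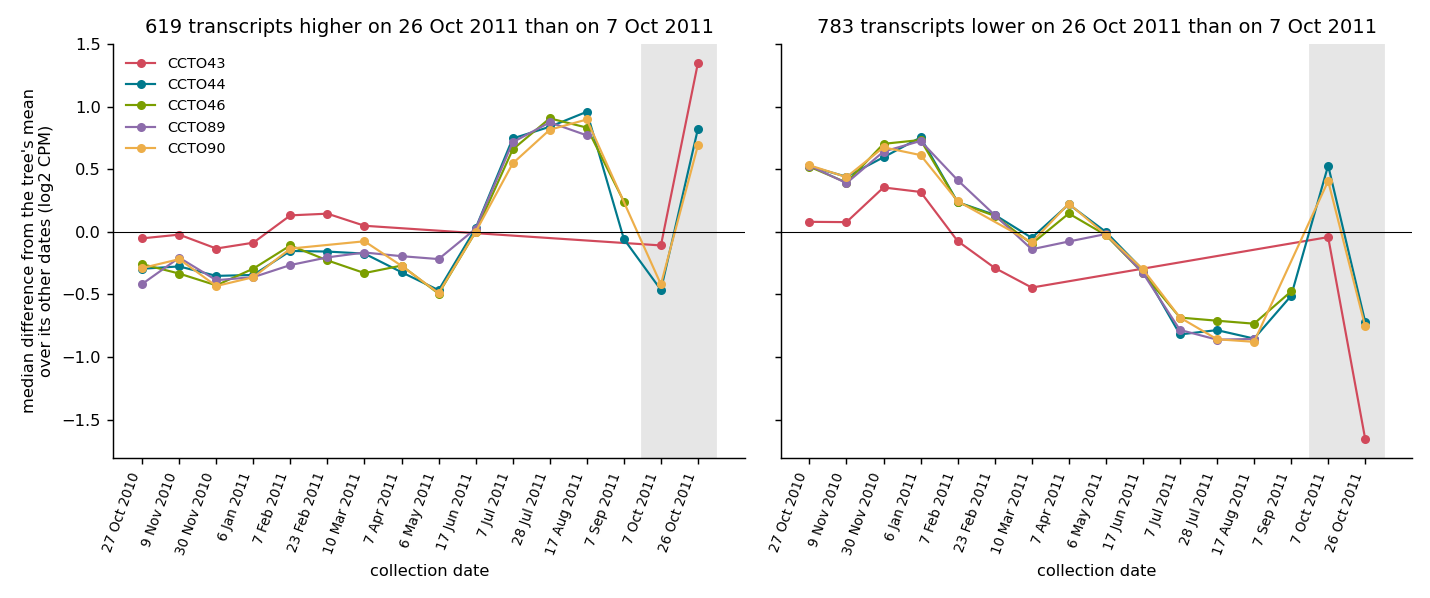
Median over the 619 transcripts that rose (left) and the 783 that fell (right) from 7 to 26 Oct 2011 of the difference between a library and its tree's mean over its other dates (log2 CPM), by collection date; each line is a tree and the grey band marks the 2 dates that chose the lists. The transcripts that rose are highest in July and August and on 26 Oct 2011, those that fell are lowest then, and CCTO46 and CCTO89, which have no library in the band, show the same summer pattern.

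Other intervals of the year, which share no library with the 2 October dates, showed which way the same transcripts went. From 17 Jun to 7 Jul 2011, 46.7% of the 619 rose (background 9.93%) and 30 of them fell (4.85%, background 7.94%). All these calls are by edgeR at an adjusted p under 0.05. In the same interval 251 of the 783 fell (32.1%, background 7.94%) and 40 rose (5.11%, background 9.93%). From 17 Aug to 7 Sep 2011, 248 of the 619 fell (40.1%, background 7.27%) and 196 of the 783 rose (background 6.26%). In each list the more frequent direction in early summer was that of late October, and in late summer it was the opposite one. The late-summer interval has less behind it, with 6 libraries against 8 from 17 Jun to 7 Jul. Only 2 of the 6, CCTO44 and CCTO46, are of 7 Sep. Their scaling factors on that date were 0.736 and 0.913, and the part of the CCTO44 library in these shares was not tested.

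Of the 71 transcripts that rose from 7 to 28 Jul 2011 (0.117% of those tested), 44 (62.0%) were among the 619, and they made up 7.11% of the 619. Of the 220 that rose from 6 May to 17 Jun (0.361%), 64 (29.1%) were among the 619, which is 10.3% of that list. In winter 183 of the 783 rose from 9 to 30 Nov 2010 (23.4%, background 6.13%) and 297 fell from 6 Jan to 7 Feb 2011 (37.9%, background 8.99%). Between 6 Jan and 17 Jun 2011, 485 of the 783 (61.9%) were higher in January, against 30.5% of all tested transcripts, and 278 of the 619 (44.9%) were lower in January, against 27.3%.

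The summer shares were close to those above or larger in the lists called without CCTO43. Of those 210 transcripts 48.1% rose from 17 Jun to 7 Jul and 50% fell from 17 Aug to 7 Sep; of the 206, 43.2% fell and 48.1% rose. A pair of libraries of 17 Aug 2011, CCTO44 and CCTO46, each resembled the other tree more than its own. With both left out, 32.1% of the 619 fell from 17 Aug to 7 Sep, against 4.18% of all tested transcripts, and 21.3% of the 783 rose, against 3.47%. The libraries left are those of CCTO89 and CCTO90 on 17 Aug and of CCTO44 and CCTO46 on 7 Sep. No tree then has both dates, so this contrast is no longer made within trees.

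**Figure D3:**
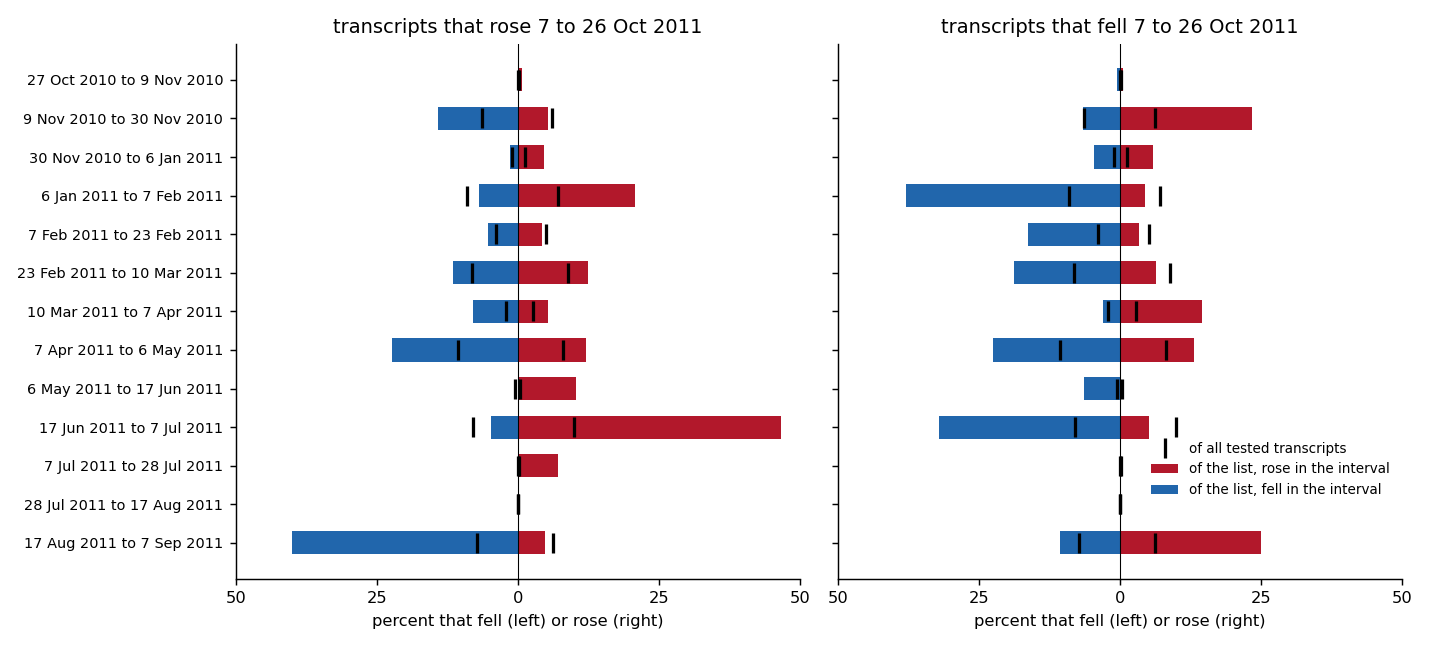
Percent of the transcripts that rose (left) and that fell (right) from 7 to 26 Oct 2011 that were called lower (blue, to the left) or higher (red, to the right) in each of 13 other intervals; black ticks mark the same percent over all tested transcripts. The longest red bar on the left is 17 Jun to 7 Jul 2011, at 46.7%, and the longest blue bar there is 17 Aug to 7 Sep 2011, at 40.1%.

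Whole profiles were also compared within trees. Apart from its own 7 Oct library (Spearman's rho 0.936), the CCTO44 library of 26 Oct was most like those of 7 Jul (0.921) and 28 Jul 2011 (0.918); against the library labelled CCTO44 of 17 Aug, which resembled CCTO46 more, it was 0.850. The CCTO44 library of 7 Oct was, after that of 26 Oct, most like 9 Nov 2010 (0.913), 17 Jun 2011 (0.912) and 27 Oct 2010 (0.911). The CCTO90 library of 26 Oct was most like 17 Aug 2011 (0.929), ahead of 7 Oct 2011 (0.927), while that of 7 Oct was next most like 27 Oct 2010 (0.900). In CCTO43, which has no summer library, that of 26 Oct had a rho of 0.854 with 7 Oct 2011 and 0.833 with 10 Mar 2011. These are correlations across 60931 transcripts, which are not independent, and the neighbouring values are too close to be ranked.

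CCTO43 changed more than the other trees. A change of at least 2-fold was seen in 41.0% of tested transcripts in CCTO43, 17.3% in CCTO44 and 21.7% in CCTO90, counted from single libraries. Among transcripts of at least 10 CPM over the 6 libraries the standard deviation of the log2 changes was 1.09, 0.588 and 0.566 in that order, and with the same limit on the mean of 66 libraries, chosen after seeing the data, it was 0.879, 0.617 and 0.570. The changes of CCTO44 and CCTO90 were correlated across those 11336 transcripts (r = 0.623). Those of CCTO43 were not clearly related to either, with r = 0.0615 against CCTO44 and r = -0.107 against CCTO90.

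The last 2 values hung on how low transcripts were left out. When the limit of 10 CPM was set on the mean of 66 libraries in place of 6, CCTO43 had r = 0.207 with CCTO44 and r = 0.193 with CCTO90, while CCTO44 and CCTO90 had r = 0.646. The sign of the weak relation of CCTO43 to CCTO90 thus changed with that choice.

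A set of transcripts stood apart in CCTO43, and without it r was 0.162 with CCTO44 and 0.137 with CCTO90. Of the 11336 transcripts, 228 had a log2 change above 4 in CCTO43, with a median of 5.00 and 90% of them between 4.55 and 5.52, and only 9 lay between 3 and 4. In CCTO44 the same 228 had a median change of -0.52 and in CCTO90 one of -1.46, where 224 of the 228 were lower on 26 Oct. The set was picked after its values were seen and no test was made of it. Of the 228, 219 averaged under 10 CPM over all 66 libraries and so entered the plot through the CCTO43 library of 26 Oct. Among the 619 called were 4 of the 228, where 1.02% of all tested transcripts were called higher.

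Outside that library the 228 were, by their median, at low levels, but psme_t039203 and psme_t044566 belong to them and were high in summer, at 285 and 2458 CPM on average on 28 Jul. Their median level was 71.4 CPM in CCTO43 on 26 Oct, 6.98 CPM in CCTO90 on 7 Oct, 6.97 CPM in CCTO44 on 7 Sep and 2.16 CPM in CCTO43 on 7 Oct. In each of these, 227 or 228 of them had at least 1 count. In CCTO90 fewer were detected in spring, 129 on 6 May and 179 on 17 Jun 2011.

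**Figure D4:**
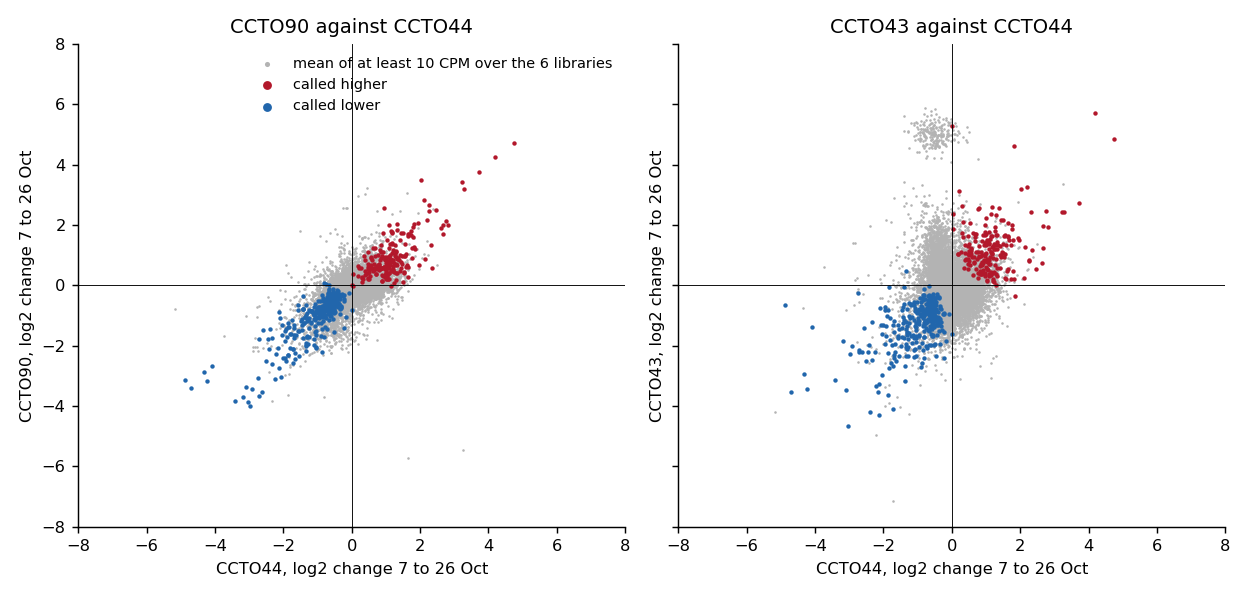
Log2 change from 7 to 26 Oct 2011 in CCTO90 (left) and CCTO43 (right) against that in CCTO44; each point is a transcript of at least 10 CPM over the 6 libraries, red and blue where the mean change was called higher or lower. On the left the points lie along a diagonal (r = 0.623); on the right they do not (r = 0.0615), and the separate cloud near 5 on the vertical axis holds most of the 228 transcripts with a change above 4 in CCTO43.

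The CCTO43 library of 26 Oct stood apart from all others before any test. Its 20 most abundant transcripts held 48.3% of its counts, against 16.8% in the same tree on 7 Oct and 13.2% to 15.2% and 11.9% to 13.5% in CCTO44 and CCTO90 on the earlier and the later date. The highest share in any other library was 38.0%, in CCTO44 on 7 Sep 2011. At an equal depth of 9924771 counts, 43452 transcripts were detected in it, the fewest of all libraries, where the next lowest had 56477. The same tree had 67693 on 7 Oct, while CCTO44 went from 71995 to 74228 and CCTO90 from 62442 to 71263. The mean change in detected transcripts was -4396 ± 17499 (SD of the differences, n = 3 trees; exact sign-flip test, two-sided p = 1, the smallest possible being 0.25), and without CCTO43 it was 5527.

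Just 4 transcripts, the most abundant of that library, made up most of this concentration. They are psme_t001906, psme_t000146, psme_t002753 and psme_t020372, and together they held 38.2% of the counts of CCTO43 on 26 Oct, against 8.18% on 7 Oct. Their share went from 4.51% to 2.01% in CCTO44 and from 4.58% to 3.60% in CCTO90, and the highest in any other library was 12.5%. The trees thus moved in different directions. None of the 4 was called as changed between the dates, with log2 changes of 1.49 to 2.13 over the 3 trees and of -0.94 to -0.48 without CCTO43.

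**Figure D5:**
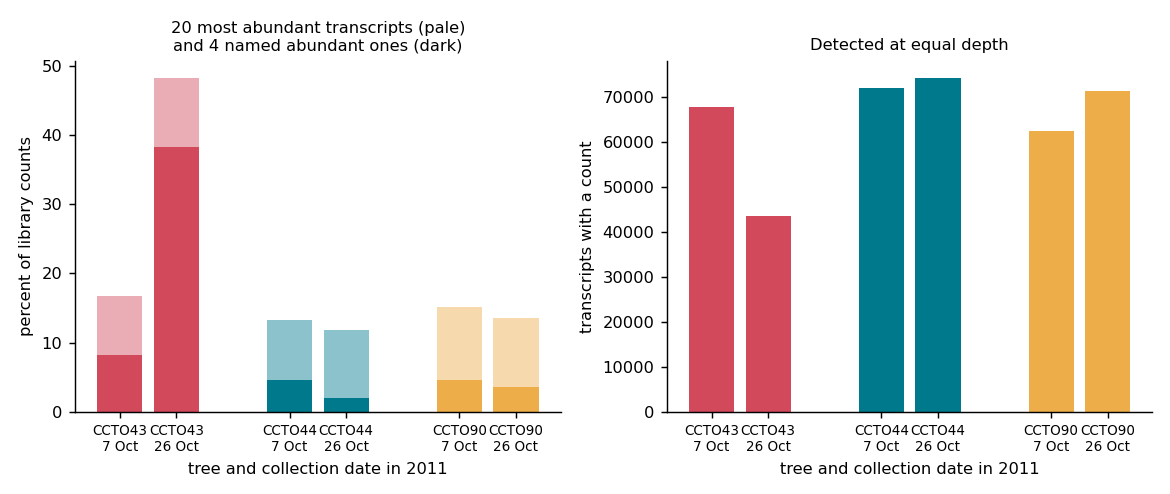
Left, percent of each library's counts held by its 20 most abundant transcripts (whole bar) and by 4 named abundant transcripts (dark part); right, number of transcripts with a count after drawing 9924771 counts from each library. The CCTO43 library of 26 Oct 2011 is at 48.3% and 43452 transcripts, while the other 5 libraries lie between 11.9% and 16.8% and between 62442 and 74228.

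Rare transcripts concentrated in that library were many by a loose rule and few by a strict one. Transcripts with at least 10 counts there and at least 90% of their summed CPM over all libraries numbered 6, and another library held 119. With 30% in place of 90%, a limit chosen after seeing the data, there were 1643, where the next library had 260 and the median library 32. These 1643 took 2.41% of the counts of CCTO43 on 26 Oct, 0.150% in the same tree on 7 Oct and 0.430% in CCTO90 on 7 Oct. Between 358 and 1528 of them, with a median of 1247, had a count in each of the other 65 libraries. Of the 228 transcripts described above, 224 are among them. The 30% limit lets most of a transcript's summed CPM lie in other libraries, and any count was enough for presence. These values therefore do not decide how many transcripts of that library were found in almost no other.

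That library was set against what its tree and its date predict by 1 added term in the model, which assumes that a lone library varies like the others. The term differed from 0 for 3008 transcripts that were higher and 2886 that were lower than predicted, together 9.67% of those tested, 4.94% and 4.74% (edgeR, adjusted p under 0.05). Relative to all tested transcripts, whose median term was -0.43, the split depended on scaling: it was 3552 against 2312 with relative log expression factors and 2470 against 4392 with upper-quartile factors. The same term for CCTO44 gave 0 calls by edgeR (5047 at an unadjusted p under 0.05; DESeq2 was not run for it). For CCTO90 it gave 1 (0.00164%), psme_t006376, named after its values were seen. In both, the CCTO43 library of 26 Oct stayed in the fit among the libraries they were set against, so these counts do not show that CCTO43 alone departs. Set against 1 other tree each, a comparison partly added after seeing the data, the CCTO43 term gave 1877 calls against CCTO90 (3.08%) and 3525 against CCTO44 (5.79%), and the CCTO44 term against CCTO90 gave 2 (0.00328%; 1303 at an unadjusted p under 0.05). Those 2, psme_t158226 and psme_t190191, were also named after their values were seen.

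That term measures a departure from the tree's other dates, not from its 7 Oct library alone. A test of the change from 7 to 26 Oct itself, CCTO43 against the mean of CCTO44 and CCTO90, was added after seeing the data and called 2011 higher and 1517 lower, 5.79% of those tested, 3.3% and 2.49% (edgeR, adjusted p under 0.05). Of the 3008, 1788 were also among the 2011, and of the 2886, 1268 were among the 1517. The same test for CCTO44 and for CCTO90 called none, with 3482 and 4290 at an unadjusted p under 0.05; there too the CCTO43 library was part of the mean they were set against, and each such test rests on 1 tree. CCTO43 differs from the other 2 trees in seed locality as well as in this library, and these cannot be told apart.

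The largest terms among transcripts of at least 10 CPM belonged to psme_t048288 and psme_t022959 upward and to psme_t125328 and psme_t053742 downward. The first 2 reached that level through the library tested: without it they averaged 3.85 CPM each. The level of psme_t048288 went from 8.78 to 69.4 CPM in CCTO43, from 5.75 to 2.11 CPM in CCTO44 and from 1.74 to 0.878 CPM in CCTO90. It rose in the first tree and was lower in the others, with a term of 5.40 on the log2 scale (SE 1.33, edgeR adjusted p = 0.00675). For psme_t022959 the term was 5.28 (SE 1.23, edgeR adjusted p = 0.00436) and the levels were close to those of psme_t048288.

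For the downward terms CCTO43 and the other trees already differed on 7 Oct. The transcript psme_t125328 had 3 counts in CCTO43 on 7 Oct and 0 on 26 Oct, and 549 and 362 counts in CCTO44, so no change can be read from CCTO43. The level of psme_t053742 went from 65.9 to 4.05 CPM in CCTO43 and was under 1 CPM in all 4 libraries of the other 2 trees. None of these 4 transcripts passed the test of the change itself (edgeR adjusted p = 0.177, 0.145, 0.505 and 0.0517 in the order named above).

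Some transcripts were called both in the main comparison and for the term of CCTO43, which share that library. Of the 619 that rose, 58 (9.37%) had a positive term, against 4.94% of all tested transcripts, and 17 (2.75%) a negative one, against 4.74%. Of the 783 that fell, 69 (8.81%) had a negative and 3 (0.383%) a positive term. The part that the CCTO43 library of 26 Oct has in the counts of changed transcripts is given by the values without it above.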

How the data were processed

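Pooled needles gave poly(A) libraries made with a strand-specific kit, per the labels' protocols. Bowtie2 2.2.3, CASAVA 1.8 and DESeq appear in the submitters' processing notes. Which transcript reference and counting settings were used is not given in the sources used here. Reads of near-identical transcripts may therefore be split between them. The authors deposited whole-number counts of 199471 transcripts in 66 libraries, with totals of 9924771 to 37373284 (12731026 to 19451981 in the 6 October libraries). A total of 3 counts is 0.135 to 0.418 CPM on the scaled values there, which covers counting error only. The authors' normalized and interpolated tables were not used here. All columns matched a library by tree and date.

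Counts were tested with edgeR 4.0.16 (limma 3.58.1, R 4.3.3): filterByExpr by date with a minimum count of 10, TMM factors, robust quasi-likelihood F tests on date and tree over all 66 libraries, and Benjamini-Hochberg adjustment over all 60931 transcripts. The block is the tree itself, sampled on both dates; after removing date means, 64 of 66 libraries, all 6 of October 2011 among them, correlated best with their own tree. P-values measure the departure of libraries from their date and tree over all 66 libraries. Log2 CPM used a prior count of 2. Tests were tested on simulated data. Alternatives were other scalings, filters, DESeq2 1.42.0, fits without the block or on 6 libraries only, and leaving out each tree.

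The comparison, the lists and the rule for names were chosen with earlier results of these data known. The rule took, among transcripts of at least 10 CPM over the 6 libraries, called with and without CCTO43 and moving the same way in 3 trees, the 2 largest changes in each direction; for the CCTO43 term, the 2 largest called in each direction; and the 4 most abundant transcripts of the CCTO43 library of 26 Oct. No sequence is printed, since no sequence of these transcripts was used here.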

Additional observations from a re-analysis of the deposited data

Results flagged for a closer look

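The CCTO43 library of 26 Oct 2011 differed from what its tree and date predict in 5894 transcripts (edgeR quasi-likelihood test, adjusted p under 0.05) in a test that assumes that a lone library varies like the others. Of the transcripts named for it, the terms were 5.40 for psme_t048288, 5.28 for psme_t022959, -7.60 for psme_t125328 and -6.11 for psme_t053742 on the log2 scale. They are given here because this library departed from its tree's other dates in that test; none passed the test of the change from 7 to 26 Oct itself. The first 2 reached 10 CPM only through the library tested, with 3.85 CPM each without it, and psme_t053742 only through CCTO43 on 7 Oct, at 65.9 CPM, where CCTO44 and CCTO90 averaged 0.416 CPM. Without CCTO90 the edgeR adjusted p was 0.0718 for psme_t048288, 0.0805 for psme_t125328 and 0.425 for psme_t053742, whose term was then -3.36. Without CCTO44 it was 0.0739 for psme_t022959.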

How the results depend on the processing

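The main count of 1402 changed transcripts (619 higher, 783 lower) was 575 (249 and 326) with no low-count filter and 2122 (1141 and 981) with DESeq2, where 16539 adjusted p were not given. The replicate block mattered: with no replicate block there were 399 (171 and 228), with only the 6 libraries of the 2 dates and the replicate block 501 (131 and 370), and with those 6 and no replicate block 2 higher and 0 lower, psme_t039203 and psme_t044566 (edgeR; 2199 at an unadjusted p under 0.05). Leaving out 1 tree, or 1 library, gave 380 to 675 (176 to 375 higher, 204 to 347 lower). Other scalings and a minimum count of 30 stayed within 1.5 times.

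The 5894 calls of the CCTO43 term were 3155 (1911 and 1244) with no filter, 1877 to 3525 without another tree (677 to 1497 higher, 1200 to 2028 lower), 3528 (1517 lower) in the test of the change itself, and 4392 lower with upper-quartile factors. Transcripts held by the CCTO43 library numbered 6, 31 at 80%, 2 at 95% and 1643 at 30%. For lists called without CCTO43, the shares that moved were 43.2% and 48.1% of the 206 in summer, 50% of the 210 from 17 Aug to 7 Sep, and 40% and 58.3% for January against June; of the 619 and 783, 32.1% and 21.3% moved from 17 Aug to 7 Sep without the 2 libraries of 17 Aug. That last setting leaves no tree with libraries of both 17 Aug and 7 Sep. The correlation of CCTO43 with CCTO90 turned from -0.107 to 0.193 with the 66-library filter and 0.137 without the set of 228, and that with CCTO44 went from 0.0615 to 0.207 and 0.162. Of 76 values for the 8 transcripts named by size, 65 kept their call and 11 lost it, none with another sign. With 3 trees, small changes are mostly beyond reach, and the causes of these differences were not tested.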
